A study of Mus musculus with 10 samples.

Results

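The tumour necrosis factor (TNF) ligand and receptor superfamily was described across 4 cell populations sorted from mouse mammary tissue. Its members were all genes on the array whose single annotated symbol starts with Tnfsf or Tnfrsf, together with Tnf, Lta, Ltb, Ltbr, Fas, Fasl, Edar, Cd27, Cd40, Cd40lg, Cd70 and Ngfr. Tnfsf11, Tnfrsf11a and Tnfrsf11b, the ligand, receptor and decoy known for alveolar growth of the mammary gland, were left out. This gave 35 members, 12 ligands and 23 receptors, of 12394 genes, each read from 1 probe set, the one with the highest average of all 10 arrays. Eda2r had no probe set with 1 symbol and was not analysed here, and Tnfsf12 and Tnfsf13 shared their probe sets with other symbols and were not used.

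Ligands of the family are mostly trimeric membrane proteins that can be shed, and their receptors carry cysteine-rich domains outside the cell. Receptors with a death domain recruit adaptors such as Tradd and Fadd and can activate caspases, while most others bind TRAF proteins and activate NF-kappa-B. Decoy receptors bind ligand without passing on a death signal. Many members are made by leukocytes and control the survival and costimulation of lymphocytes, and fibroblasts and epithelial cells express several of the receptors.

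All mice were of the FVB/N strain. Cells labelled CAF, a common abbreviation for cancer-associated fibroblasts, had 3 arrays, and the fibroblasts of control mammary glands, labelled COF, had 3 arrays. The cells labelled CSC (a usual short form of cancer stem cells) had 2 arrays, as had those labelled TEC. CAF, CSC and TEC came from Wnt-Met mammary tumours of mice with the genotype WAPCre-DNbcatn;HGF, and COF came from WT mice, so the CAF arrays differ from the COF arrays by genotype as well as by tumour. The Wap promoter is active in the milk-producing epithelium, so the Cre of this model acts in epithelial cells and not in the fibroblasts as a rule. The sources used here do not say what drives HGF. For TEC, the field for the sorted cells reads TEFs. RNA was extracted straight after sorting, and 100 ng of total RNA was labelled per array. The sorting gates, the ages and whether arrays came from separate mice are not given in the sources used here, so the p-values rest on the spread among these arrays, which may be technical. Values are deposited log2 intensities made with RMA, which corrects background and equalises arrays, and 1 unit is a doubling.

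The medians of the arrays lay between 6.89 and 7.02 and their lower quartiles between 5.05 and 5.26, and a value under the lower quartile of its array is called dim here. The log2 of the summed intensity of 11 fibroblast markers was 17.04 to 17.06 on CAF and 17.06 to 17.11 on COF arrays. It was 13.97 and 14.19 on CSC arrays, and 14.18 and 16.16 on the TEC arrays, so TEC replicate 2 stood apart. The 13 epithelial markers summed to 16.13 and 16.34 in CSC and to 13.73 and 14.30 in TEC. The 10 leukocyte markers summed to 13.88 and 14.41 in CSC and to 16.21 and 16.62 in TEC, above the epithelial markers on both TEC arrays, so the TEC label is used here as a name only. Ptprc, the pan-leukocyte gene Cd45, stood at 11.36 and 10.61 on the CSC arrays. The 11 macrophage markers summed to 15.50 and 15.67 in CSC and to 15.78 and 15.91 in TEC, so the CSC label is used as a name as well. In such bulk samples, fewer cells of a type and less RNA per cell cannot be told apart. The 3 comparisons share the pooled spread, and CAF and CSC arrays each enter 2 of them.

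Of the 35 members, 32 passed the test in at least 1 comparison, 4 in all 3 and 3 in none. The highest mean was in TEC for 20 members, in CAF for 6, in COF for 5 and in CSC for 4. For 16, 4, 4 and 3 of these, in the same order of groups, the arrays of the highest group did not overlap those of the next. Counts of this kind were not made over all genes, so they are not read as a trait of the family. Tnfrsf12a, Tnfrsf1a and Tnfrsf21 had high intensities in every population. Cd27 was dim on every array, and 19 members were above the lower quartile on every array. Levels of different genes come from different probes and are not compared with each other.

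**Figure D1:**
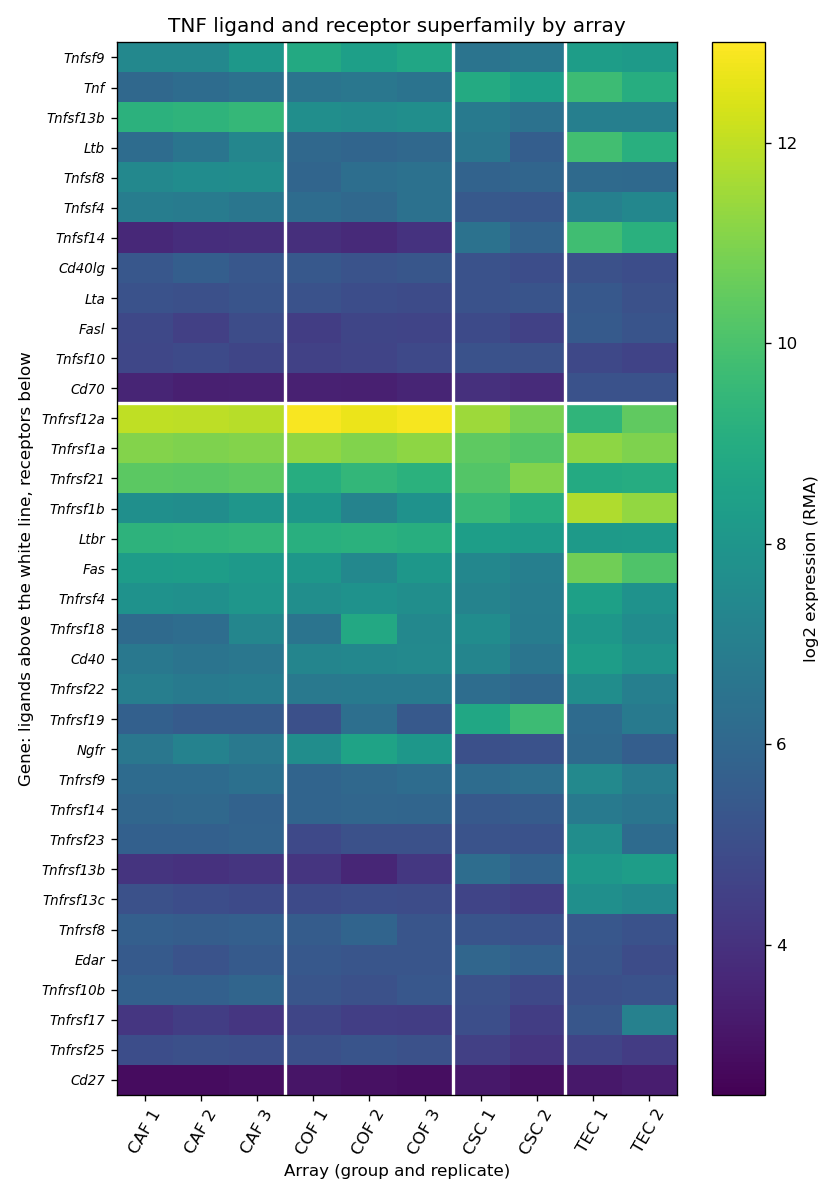
Heat map of the log2 expression (RMA) of the 35 members on the 10 arrays, with ligands above and receptors below the white line and columns grouped as CAF, COF, CSC and TEC. Tnfsf13b is brightest in CAF (9.23 to 9.48), Tnfrsf19 in CSC (8.74 and 9.69), and Ltb (9.82 and 9.12) and Tnfsf14 (9.77 and 9.18) in TEC.

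The promoters of 4 members are shown because these genes carry the main differences described below: Tnfsf13b for CAF, Tnfrsf19 for CSC, Ltb for TEC, and Tnf, the gene next to Ltb, for comparison. Each is the 250 bases before a start listed by RefSeq in build GRCm38.p6, written from 5′ to 3′ on the strand of the gene, with 1 motif match in capitals. For Tnfsf13b and Tnfrsf19, which have 2 listed starts, the downstream one is shown. It was taken because its window held the motif, which the window of the other start did not. The Tnfsf13b window is chr8:10006383-10006632 on the plus strand, and its capitals mark an AP-1 motif. The Tnfrsf19 window is chr14:61037988-61038237 on the minus strand, and its capitals mark a TCF/LEF motif read on the other strand. The Ltb window is chr17:35194257-35194506 on the plus strand, with an NF-kappa-B motif on the other strand. The Tnf window is chr17:35202008-35202257 on the minus strand, with a TATA motif.
Tnfsf13b: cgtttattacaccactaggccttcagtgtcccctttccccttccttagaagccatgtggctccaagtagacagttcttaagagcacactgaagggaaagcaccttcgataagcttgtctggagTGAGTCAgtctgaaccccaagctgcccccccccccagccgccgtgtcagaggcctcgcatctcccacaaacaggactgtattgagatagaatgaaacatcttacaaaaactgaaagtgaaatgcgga
Tnfrsf19: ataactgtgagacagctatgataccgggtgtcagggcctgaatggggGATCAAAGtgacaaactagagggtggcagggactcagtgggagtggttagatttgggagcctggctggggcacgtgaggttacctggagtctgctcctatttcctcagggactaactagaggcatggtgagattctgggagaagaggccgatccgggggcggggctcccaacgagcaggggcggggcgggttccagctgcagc
Ltb: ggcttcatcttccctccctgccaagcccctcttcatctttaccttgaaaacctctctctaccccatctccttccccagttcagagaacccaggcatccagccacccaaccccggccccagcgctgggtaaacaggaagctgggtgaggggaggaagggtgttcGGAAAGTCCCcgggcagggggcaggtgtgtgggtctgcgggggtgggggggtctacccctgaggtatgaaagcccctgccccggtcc
Tnf: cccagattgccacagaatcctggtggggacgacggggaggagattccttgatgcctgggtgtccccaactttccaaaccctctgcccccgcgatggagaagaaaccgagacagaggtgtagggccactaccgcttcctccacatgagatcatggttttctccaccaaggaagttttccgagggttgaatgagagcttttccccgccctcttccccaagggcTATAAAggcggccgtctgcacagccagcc

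Promoters were listed for 28 members, 32 promoters in all, and motifs were searched on both strands in the same windows of all 32851 promoters. The NF-kappa-B motif, GGG followed by any 2 bases and TTTCC, was found in 3 member promoters (9.38%) and in 1.41% of all promoters. TGANTCA of AP-1 was in 5 (15.6%) and in 6.75% of all. CTTTGATC of TCF/LEF was in 1 (3.12%) and in 0.801% of all, and TATAAA in 4 (12.5%) and in 12.4% of all. A match is a description of the letters and not a binding site.

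The comparison of CAF with COF concerns the fibroblasts of tumours and of control glands. In CAF, 3 ligands that act on lymphocytes rose, led by the B cell survival factor Tnfsf13b (BAFF) at 3.22-fold and the CD30 ligand Tnfsf8 at 2.54-fold. The death-domain receptor Tnfrsf21 rose 2.17-fold, while the neurotrophin receptor Ngfr was 2.35-fold and the costimulatory ligand Tnfsf9 2.07-fold lower in CAF. In all, 9 of 35 members passed (25.7%), against 34.8% of all genes (limma, adjusted p under 0.05). Of them 5 were higher (14.3%, against 18.1% of all genes) and 4 lower (11.4%, against 16.7%), so the members' shares were below those of all genes. The median difference was 0.08 over the members and 0.02 over all genes.

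Among the ligands, 3 of 12 rose, 1 fell and 8 did not pass. Tnfsf13b stood at 9.23, 9.33 and 9.48 on the CAF arrays, against 7.70, 7.57 and 7.70 on the COF arrays. The groups lay far apart, and Tnfsf13b differed by 1.69 ± 0.11 on the log2 scale (SE, n = 3 and 3, adjusted p = 2.38e-05). CAF was also above the tumour populations, where Tnfsf13b was 6.81 and 6.44 in CSC and 7.04 and 7.05 in TEC. Tnfsf8, whose receptor Tnfrsf8 is found on activated lymphocytes, stood at 7.41, 7.62 and 7.64 in CAF, against 5.94, 6.29 and 6.40 in COF. Its difference was 1.34 ± 0.13 (adjusted p = 0.000102), and again every CAF array was above every other array. Tnfsf4 (OX40 ligand), a costimulator of T cells, stood at 6.96, 6.88 and 6.63 in CAF, against 6.22, 6.06 and 6.43 in COF. This was a smaller difference of 0.59 ± 0.13 (adjusted p = 0.00833), with no overlap. Tnfsf9 (4-1BB ligand), another T cell costimulator, stood at 7.40, 7.42 and 8.09 in CAF, against 8.89, 8.43 and 8.73 in COF. It fell by 1.05 on the log2 scale ± 0.19 (adjusted p = 0.00302), and CAF replicate 3 lay nearest to COF. Ltb, a subunit of membrane lymphotoxin, did not pass (0.70 ± 0.32, adjusted p = 0.133). It stood at 6.23, 6.57 and 7.31 in CAF, against 6.05, 5.92 and 6.05 in COF, and without CAF replicate 3 its difference was 0.39.

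Of the 23 receptors, 2 rose, 3 fell and 18 did not pass. Of the 7 receptors with a death domain 2 rose (28.6%, against 18.1% of all genes), Ngfr fell (14.3%, against 16.7%) and 4 did not pass. Tnfrsf21 (DR6) stood at 10.35, 10.32 and 10.39 in CAF, against 9.03, 9.46 and 9.21 in COF, a difference of 1.12 ± 0.19 (adjusted p = 0.00197). The CAF arrays differed little among themselves and stayed above COF. Tnfrsf10b, the mouse TRAIL death receptor, stood at 5.70, 5.70 and 5.91 in CAF, against 5.27, 5.09 and 5.35 in COF (0.54 ± 0.12, adjusted p = 0.00737). These are low intensities, with COF close to the lower quartile.

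Ngfr (p75), a death-domain receptor of neurotrophins, stood at 6.67, 7.14 and 6.76 in CAF, against 7.63, 8.58 and 8.06 in COF. It fell by 1.23 ± 0.23 (adjusted p = 0.00338), with every CAF array below every COF array, and its tumour values were lower than in both fibroblast populations. Tnfrsf12a (Fn14), the receptor of TWEAK, stood at 12.01, 11.94 and 11.89 in CAF, against 12.89, 12.70 and 12.84 in COF (-0.86 ± 0.25, adjusted p = 0.0240). This call was lost when any of 5 fibroblast arrays was left out, CAF replicates 1, 2 and 3 and COF replicates 1 and 3. The differences of Tnfrsf12a were then -0.82 to -0.90, with adjusted p of 0.0587 to 0.0751. The pooled spread of the test includes the TEC arrays, where Tnfrsf12a stood at 9.37 and 10.42. With only the CAF and COF arrays its adjusted p was 0.000166. Cd40, a receptor of antigen-presenting cells that fibroblasts can also carry, stood at 6.69, 6.53 and 6.65 in CAF, against 7.26, 7.34 and 7.44 in COF. It fell by 0.72 ± 0.18 (adjusted p = 0.0143), and without COF replicate 3 or CAF replicate 2 it fell by 0.67 (adjusted p = 0.0567 and 0.0564). The TNF receptors Tnfrsf1a (-0.12 ± 0.11, adjusted p = 0.464) and Tnfrsf1b (0.09 ± 0.25, adjusted p = 0.828) did not pass, nor did Tnf itself (-0.33 ± 0.19, adjusted p = 0.230) or Fas (0.42 ± 0.21, adjusted p = 0.164). The decoy receptor Tnfrsf23 did not pass (0.76 ± 0.30, adjusted p = 0.0797), at 5.70, 5.73 and 5.86 in CAF against 4.80, 5.12 and 5.10 in COF, where it was dim. With only the CAF and COF arrays its adjusted p was 0.000982, and Tnf (0.0377) and Ltbr (0.0486) passed as well. The widest spread among the members was in Tnfrsf18 (GITR), at 6.12, 6.26 and 7.31 in CAF and 6.53, 8.82 and 7.40 in COF, which did not pass (adjusted p = 0.189).

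**Figure D2:**
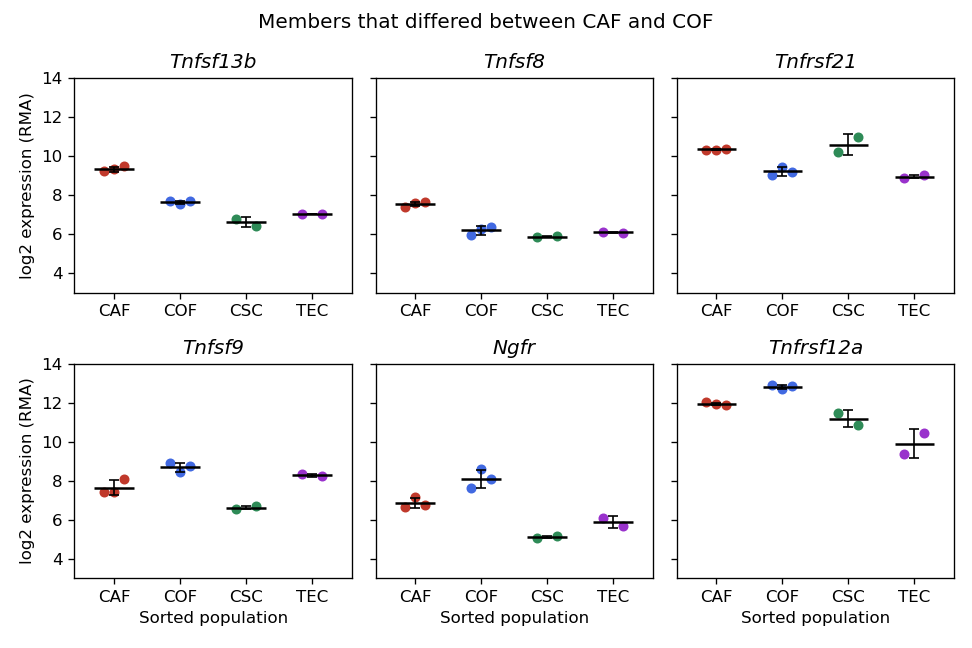
Log2 expression (RMA) of 6 members that differed between CAF and COF, in CAF, COF, CSC and TEC; points are arrays (n = 3, 3, 2 and 2), bars the mean and whiskers the SD. Tnfsf13b and Tnfsf8 are highest on the 3 CAF arrays, and Tnfsf9, Ngfr and Tnfrsf12a are highest on COF arrays.

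Markers of other cells moved with the same comparison. Of 10 leukocyte markers 9 rose, with summed levels of 10.36 to 11.43 in CAF against 8.93 to 9.45 in COF. Of 11 macrophage markers 6 rose (10.77 to 11.30 in CAF against 8.89 to 9.22 in COF), and of 5 mast cell markers 4 rose (9.00 to 9.83 against 7.77 to 7.90). Of 13 epithelial markers 9 rose and 1 fell (10.95 to 11.47 in CAF against 10.02 to 10.77 in COF). On the TEC arrays, where the leukocyte markers summed to at least 16.21, Tnfsf13b and Tnfsf8 were lower than on every CAF array. Of 9 measured T and NK cell markers 2 rose and 0 fell, with sums of 9.48 to 10.16 in CAF against 9.08 to 9.12 in COF. Their sums on the TEC arrays were 10.15 and 9.83, within the range of CAF. Of 6 pericyte markers 2 rose and 1 fell, with sums of 10.73 to 10.95 in CAF against 9.86 to 10.05 in COF. The 3′ minus 5′ log2 signal of Actb probes was 0.59 to 0.61 in CAF against 0.66 to 0.76 in COF. That of Gapdh probes overlapped, with 0.06 to 0.15 in CAF and 0.05 to 0.14 in COF. Without CAF replicate 3, which had the highest leukocyte sum of the fibroblast arrays, Tnfsf13b differed by 1.62, Tnfsf8 by 1.30, Tnfrsf21 by 1.10 and Tnfsf9 by -1.28. The part of these cells and of RNA quality in the members' differences was not tested. With the closest arrays of a group averaged, CAF replicates 1 and 2 and COF replicates 1 and 3, the calls left were Ngfr, Tnfrsf21, Tnfsf13b and Tnfsf8, 4 of 9.

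The comparison of CSC with TEC asked what sets apart cells of the same tumours. Most members were lower in CSC: the lymphotoxin subunit Ltb was 10.1-fold, the ligand Tnfsf14 (LIGHT) 9.99-fold and the death receptor Fas 9.24-fold lower. The receptor Tnfrsf19 (TROY) ran the other way and was 6.58-fold higher in CSC, and the death-domain receptor Tnfrsf21 was 3.13-fold higher. In all, 25 of 35 members passed (71.4%), against 46.7% of all genes. Of them 20 were lower (57.1%, against 20.1% of all genes) and 5 higher (14.3%, against 26.6%). The median difference was -0.75 over the members and 0.00 over all genes. Without TEC replicate 1 the number passing was 22, and without TEC replicate 2, the array with high fibroblast markers, 23.

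Of the 12 ligands, 8 were lower in CSC (66.7%, against 20.1% of all genes), 1 higher (8.33%, against 26.6%) and 3 did not pass. Ltb stood at 6.62 and 5.65 in CSC, against 9.82 and 9.12 in TEC, a difference of -3.33 ± 0.39 (SE, n = 2 and 2, adjusted p = 0.000163). The CSC arrays were near the fibroblasts, which ranged over 5.92 to 7.31. Tnfsf14, which binds Ltbr and Tnfrsf14, stood at 6.47 and 5.84 in CSC, against 9.77 and 9.18 in TEC (-3.32 ± 0.24, adjusted p = 1.36e-05). Unlike Ltb, Tnfsf14 was dim on all 6 fibroblast arrays, at 3.71 to 4.02, and CSC held a middle place on the probe set used. On its other probe set the CSC mean of 4.71 was near those of CAF (4.62) and COF (4.50), with TEC at 7.05. Tnfsf4 stood at 5.45 and 5.36 in CSC, against 7.09 and 7.38 in TEC (-1.83 ± 0.16, adjusted p = 3.72e-05). Tnfsf9 stood at 6.55 and 6.69 in CSC, against 8.34 and 8.22 in TEC (-1.66 ± 0.24, adjusted p = 0.000450). Both costimulatory ligands were thus lowest in CSC of all populations. Cd70, the ligand of Cd27, stood at 3.94 and 3.79 in CSC, against 5.16 and 5.13 in TEC (-1.28 ± 0.11, adjusted p = 2.79e-05), and was dim outside TEC, so the size of this difference depends on the background.

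The inflammatory cytokine gene Tnf differed less. It stood at 8.90 and 8.41 in CSC, against 9.71 and 9.05 in TEC (-0.73 ± 0.23, adjusted p = 0.0289), and both populations were well above the fibroblasts. Without TEC replicate 1 the difference was -0.39 (adjusted p = 0.173) and without CSC replicate 2 it was -0.48 (adjusted p = 0.191). Fasl, the ligand of Fas, was also lower (-0.67 ± 0.18, adjusted p = 0.0143), with an adjusted p of 0.0704 without TEC replicate 1 and 0.101 without CSC replicate 2. Tnfsf13b was lower by a small margin (-0.42 ± 0.14, adjusted p = 0.0332), a call lost in 8 of 20 other settings. Without CSC replicate 2 its difference was -0.24 (adjusted p = 0.214), and without TEC replicate 1, TEC replicate 2, COF replicate 3 or CAF replicate 2 its adjusted p was 0.0524 to 0.0759. The death ligand Tnfsf10 (TRAIL) was the only ligand higher in CSC, at 5.14 and 5.12 against 4.78 and 4.61 in TEC (0.44 ± 0.12, adjusted p = 0.0167). Tnfsf10 was dim on 8 of 10 arrays, and its adjusted p was 0.0681 without TEC replicate 2 and 0.0555 and 0.0565 without CSC replicates 1 and 2.

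Of the 23 receptors, 12 were lower in CSC (52.2%, against 20.1% of all genes), 4 higher (17.4%, against 26.6%) and 7 did not pass. All 3 receptors of BAFF were lower. Tnfrsf13c (BAFF receptor) stood at 4.67 and 4.46 in CSC, against 7.73 and 7.49 in TEC (-3.05 ± 0.13, adjusted p = 3.68e-06), and was dim on all arrays but those of TEC, so the size of the difference depends on the background. Tnfrsf13b (TACI) stood at 6.26 and 5.80 in CSC, against 8.09 and 8.33 in TEC (-2.18 ± 0.21, adjusted p = 5.31e-05). Tnfrsf17 (BCMA), a receptor of plasma cells, stood at 5.01 and 4.41 in CSC, against 5.30 and 7.11 in TEC (-1.50 ± 0.47, adjusted p = 0.0269). The TEC arrays disagreed on Tnfrsf17: its difference was -0.59 without TEC replicate 2 (adjusted p = 0.0747) and -2.40 without TEC replicate 1. Without CSC replicate 2 it was -1.19 (adjusted p = 0.154).

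The receptors of TNF and Fas ligand were lower as well. Tnfrsf1b (TNFR2), common on leukocytes, stood at 9.60 and 9.08 in CSC, against 11.75 and 11.29 in TEC (-2.18 ± 0.30, adjusted p = 0.000374). Tnfrsf1a (TNFR1), found on most cells, stood at 10.38 and 10.18 in CSC, against 11.23 and 10.97 in TEC (-0.82 ± 0.13, adjusted p = 0.000867). Fas stood at 7.37 and 7.02 in CSC, against 10.71 and 10.10 in TEC (-3.21 ± 0.26, adjusted p = 2.49e-05), and the CSC values were below those of all fibroblast arrays. The costimulatory receptors Cd40 (-1.20 ± 0.22), Tnfrsf4 (OX40, -1.09 ± 0.19), Tnfrsf9 (4-1BB, -0.90 ± 0.18) and Tnfrsf14 (HVEM, -1.23 ± 0.12) were lower too (adjusted p of at most 0.00351). Both mouse TRAIL decoys were lower. Tnfrsf22 stood at 6.24 and 6.02 in CSC, against 7.65 and 7.05 in TEC (-1.22 ± 0.18, adjusted p = 0.000557). Tnfrsf23 stood at 5.18 and 5.16 in CSC, against 7.64 and 6.18 in TEC (-1.74 ± 0.36, adjusted p = 0.00380), and without TEC replicate 1 its difference was -1.02. Ltbr, the lymphotoxin beta receptor, was nearly level at 8.40 and 8.30 in CSC and 8.23 and 8.26 in TEC (0.11 ± 0.10, adjusted p = 0.400, 95% interval -0.11 to 0.32).

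Tnfrsf19 was the receptor with the greatest excess in CSC. It stood at 8.74 and 9.69 in CSC, against 6.16 and 6.83 in TEC (2.72 ± 0.43, adjusted p = 0.000767), and at 5.05 to 6.33 in the fibroblasts. Tnfrsf19 is a receptor of epithelial and neural progenitors and a known target of Wnt signalling in human cells. Its other probe sets gave 1.43 and 0.31 in the same direction, and the mean of its probe sets 1.49. Tnfrsf21 stood at 10.21 and 11.00 in CSC, against 8.90 and 9.02 in TEC (1.65 ± 0.23, adjusted p = 0.000428). Tnfrsf12a stood at 11.48 and 10.87 in CSC, against 9.37 and 10.42 in TEC (1.28 ± 0.30, adjusted p = 0.00727). The TEC arrays differed by more than 1 unit here, and the difference was 0.75 without TEC replicate 1, 1.80 without TEC replicate 2 and 0.97 (adjusted p = 0.0529) without CSC replicate 1. Edar, the ectodysplasin receptor of skin appendages and the mammary bud, stood at 5.97 and 5.70 in CSC, against 5.26 and 4.95 in TEC (0.72 ± 0.15, adjusted p = 0.00419).

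**Figure D3:**
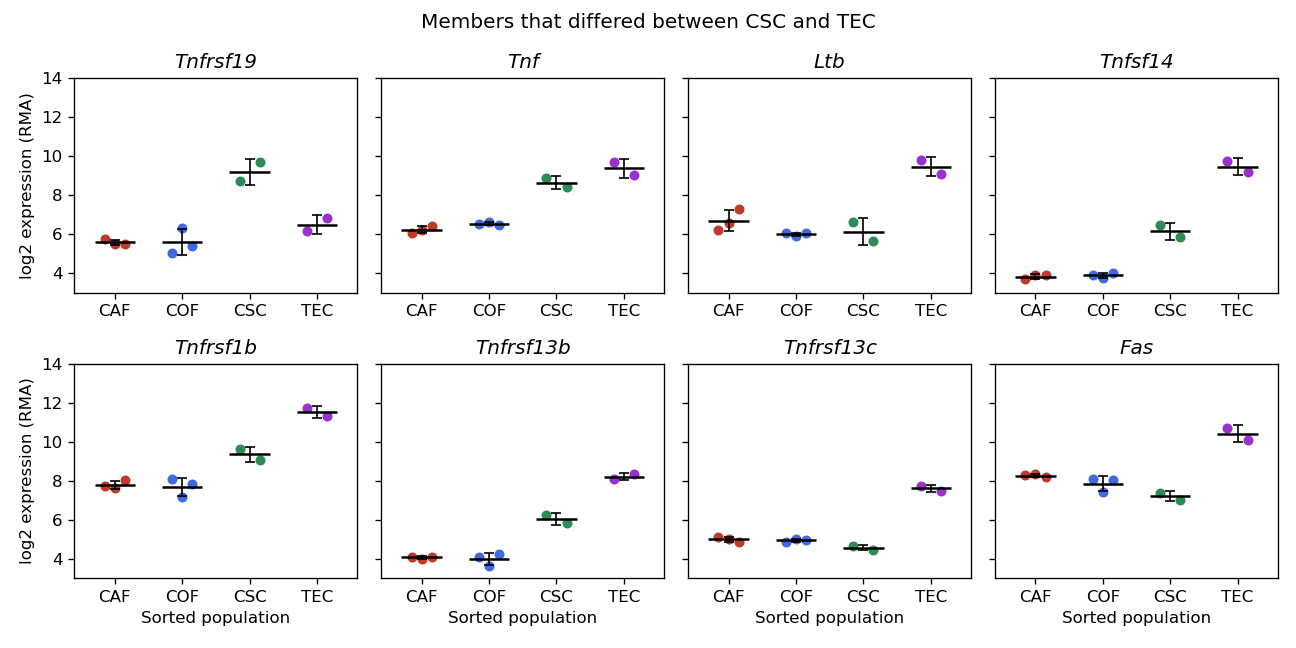
Log2 expression (RMA) of 8 members that differed between CSC and TEC, in CAF, COF, CSC and TEC; points are arrays (n = 3, 3, 2 and 2), bars the mean and whiskers the SD. Tnfrsf19 is highest in CSC (8.74 and 9.69), and the other 7 are highest in TEC.

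Leukocyte markers moved with these members. All 10 leukocyte markers were lower in CSC, as were 4 of 4 granulocyte markers (8.84 and 10.24 in CSC against 13.18 and 13.56 in TEC), 5 of 5 dendritic cell markers (8.94 and 9.21 against 11.95 and 12.17) and 5 of 5 B cell markers (6.99 and 7.32 against 8.98 and 9.37). The B cell marker Ms4a1 (CD20) stood at 4.98 and 4.65 in CSC, against 8.12 and 6.89 in TEC. Of 11 macrophage markers 4 were higher and 3 lower in CSC, with sums of 15.50 and 15.67 in CSC against 15.78 and 15.91 in TEC. All 13 epithelial markers were higher in CSC. RNA quality was read as the log2 signal of probes at the 3′ end minus that at the 5′ end. For Actb it was 0.63 and 0.62 in CSC against 0.32 and 0.46 in TEC. For Gapdh it differed less, with 0.29 and 0.30 in CSC against 0.26 and 0.24 in TEC. The part of these cells and of RNA quality in the members' differences was not tested.

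The comparison of CAF with CSC set 2 populations of one tumour type side by side. The CSC arrays also carried leukocyte and macrophage markers, and which of their cells made a transcript was not tested. The ligands Tnfsf13b (6.59-fold), Tnfsf8 (3.20-fold), Tnfsf4 (2.67-fold) and Tnfsf9 (2.02-fold) were higher on CAF arrays, whereas Tnf was higher on CSC arrays (CAF 5.38-fold lower). Tnfsf14 was lower in CAF as well, where it was dim, so that its size depends on the background. Among receptors, Tnfrsf19 was 12.4-fold lower in CAF, while Ngfr was 3.34-fold, Fas 2.09-fold and Ltbr 2.0-fold higher. In all, 25 of 35 members passed (71.4%), against 66.5% of all genes. Of them 17 were higher (48.6%, against 33.4% of all genes) and 8 lower (22.9%, against 33.1%). The median difference was 0.42 over the members and 0.01 over all genes.

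Of the ligands, 5 of 12 were higher in CAF (41.7%, against 33.4% of all genes) and 4 lower (33.3%, against 33.1%). Tnfsf13b had the smallest adjusted p of the family in this comparison, with a difference of 2.72 ± 0.13 (SE, n = 3 and 2, adjusted p = 2.64e-07). Tnfsf8 differed by 1.68 ± 0.14 (adjusted p = 8.89e-06), Tnfsf4 by 1.42 ± 0.15 (adjusted p = 3.53e-05) and Tnfsf9 by 1.01 ± 0.22 (adjusted p = 0.00259). Tnf stood at 6.06, 6.20 and 6.42 in CAF, against 8.90 and 8.41 in CSC (-2.43 ± 0.21, adjusted p = 1.16e-05). Tnfsf14 differed by -2.32 ± 0.21 (adjusted p = 1.66e-05) on the probe set used, but by -0.09 on its other probe set, whose means of 4.62 in CAF and 4.71 in CSC are dim. All 10 leukocyte, 11 macrophage and 13 epithelial markers were lower in CAF than in CSC, and all 11 fibroblast markers were higher. The 3′ minus 5′ log2 signal of Gapdh probes was 0.06 to 0.15 in CAF against 0.29 and 0.30 in CSC. That of Actb probes was closer, with 0.59 to 0.61 in CAF against 0.63 and 0.62 in CSC. The part of these markers and of RNA quality in the members' differences was not tested.

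Of the receptors, 12 of 23 were higher in CAF (52.2%, against 33.4% of all genes) and 4 lower (17.4%, against 33.1%). Of the 7 receptors with death domains, 5 passed as higher in CAF (71.4%, against 33.4% of all genes). Edar passed as lower (-0.46 ± 0.14, adjusted p = 0.0170). Fas stood at 8.29, 8.33 and 8.16 in CAF, against 7.37 and 7.02 in CSC (1.07 ± 0.24, adjusted p = 0.00328). Ngfr differed by 1.74 ± 0.26 (adjusted p = 0.000305) and was dim on 1 of 2 CSC arrays. Tnfrsf10b (0.83 ± 0.13), Tnfrsf1a (0.76 ± 0.12) and Tnfrsf25 (DR3, 0.70 ± 0.13), a receptor of T cells, were higher too (adjusted p of at most 0.00134). Tnfrsf25 was dim on 9 of 10 arrays. Tnfrsf21 did not pass (-0.25 ± 0.21, adjusted p = 0.312), though its other probe set differed by -0.69 and it passed at -0.65 without CSC replicate 1 (adjusted p = 0.00968). Without CAF replicate 2 or CSC replicate 1, Edar differed by -0.36 and -0.32 (adjusted p = 0.0597 and 0.128).

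Ltbr stood at 9.30, 9.33 and 9.42 in CAF, against 8.40 and 8.30 in CSC (1.0 ± 0.09, adjusted p = 1.23e-05), with little spread in either group. Tnfrsf19 stood at 5.74, 5.52 and 5.50 in CAF, against 8.74 and 9.69 in CSC (-3.63 ± 0.39, adjusted p = 4.02e-05). Tnfrsf19 was the receptor most unequal between CAF and CSC, and its other probe sets differed by -2.21 and -0.49. Tnfrsf13b differed by -1.98 ± 0.19 (adjusted p = 2.11e-05), and dim on all CAF arrays. Tnfrsf1b differed by -1.55 ± 0.27 (adjusted p = 0.000895) on the probe set used, while its other probe set gave 0.55 and the mean of both -0.50 (adjusted p = 0.0563). The direction of Tnfrsf1b between CAF and CSC thus depends on the probe set. Tnfrsf12a, at 0.77 ± 0.28 (adjusted p = 0.0329), did not pass without CSC replicate 2 (0.47, adjusted p = 0.252) or without CAF replicate 1, 2 or 3 (0.74 to 0.80, adjusted p of 0.0598 to 0.0797).

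Weaker calls of this comparison were Tnfrsf13c (0.42), Tnfrsf8 (0.48), Cd40lg (0.39), Tnfsf10 (-0.37) and Cd70 (-0.37). Without CSC replicate 2, Tnfrsf13c differed by 0.32 (adjusted p = 0.0853), Tnfrsf8 by 0.43 (adjusted p = 0.114) and Cd40lg by 0.32 (adjusted p = 0.107). Cd40lg differed by 0.30 (adjusted p = 0.0624) without CAF replicate 2. Tnfrsf8 had an adjusted p of 0.0655, 0.0612 and 0.0638 without CAF replicate 1, CAF replicate 3 and CSC replicate 1. Tnfsf10 had one of 0.0502 to 0.0631 without CAF replicate 1 or 3 or either CSC array. Cd70 differed by -0.30 (adjusted p = 0.0574) without CSC replicate 1.

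Of 22 ligand-receptor pairs listed from general knowledge, 17 had both genes measured. In 5 pairs the ligand and the receptor passed in opposite directions between CAF and CSC. In this comparison 33.4% of all genes were higher and 33.1% lower. Counts over other pairs of genes were not made, so the pair counts are not read as a trait of the family. The Tnf ligand gene was lower in CAF and its receptor gene Tnfrsf1a higher. Tnfsf14 was lower in CAF while both its receptors, Ltbr and Tnfrsf14 (0.48 ± 0.11, adjusted p = 0.00322), were higher. Tnfsf10 was lower and Tnfrsf10b higher, and Tnfsf13b was higher and Tnfrsf13b lower. In 4 pairs both genes passed in the same direction, among them Tnfsf4 with Tnfrsf4 and Tnfsf8 with Tnfrsf8. Another of them was Tnf with Tnfrsf1b, and the direction of Tnfrsf1b depends on the probe set. The calls of Tnfsf10 and Tnfrsf8 were lost in some other settings, and Tnfsf14 differed by -0.09 on its other probe set. Between CSC and TEC 9 pairs moved in the same direction and 0 in opposite ones, where 57.1% of all members were lower in CSC. Several of these pairs rest on the ligand calls of Tnfsf13b, Tnf or Fasl, which were lost in some other settings. Between CAF and COF no pair had both genes pass. Transcript levels do not show that a ligand and its receptor meet.

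**Figure D4:**
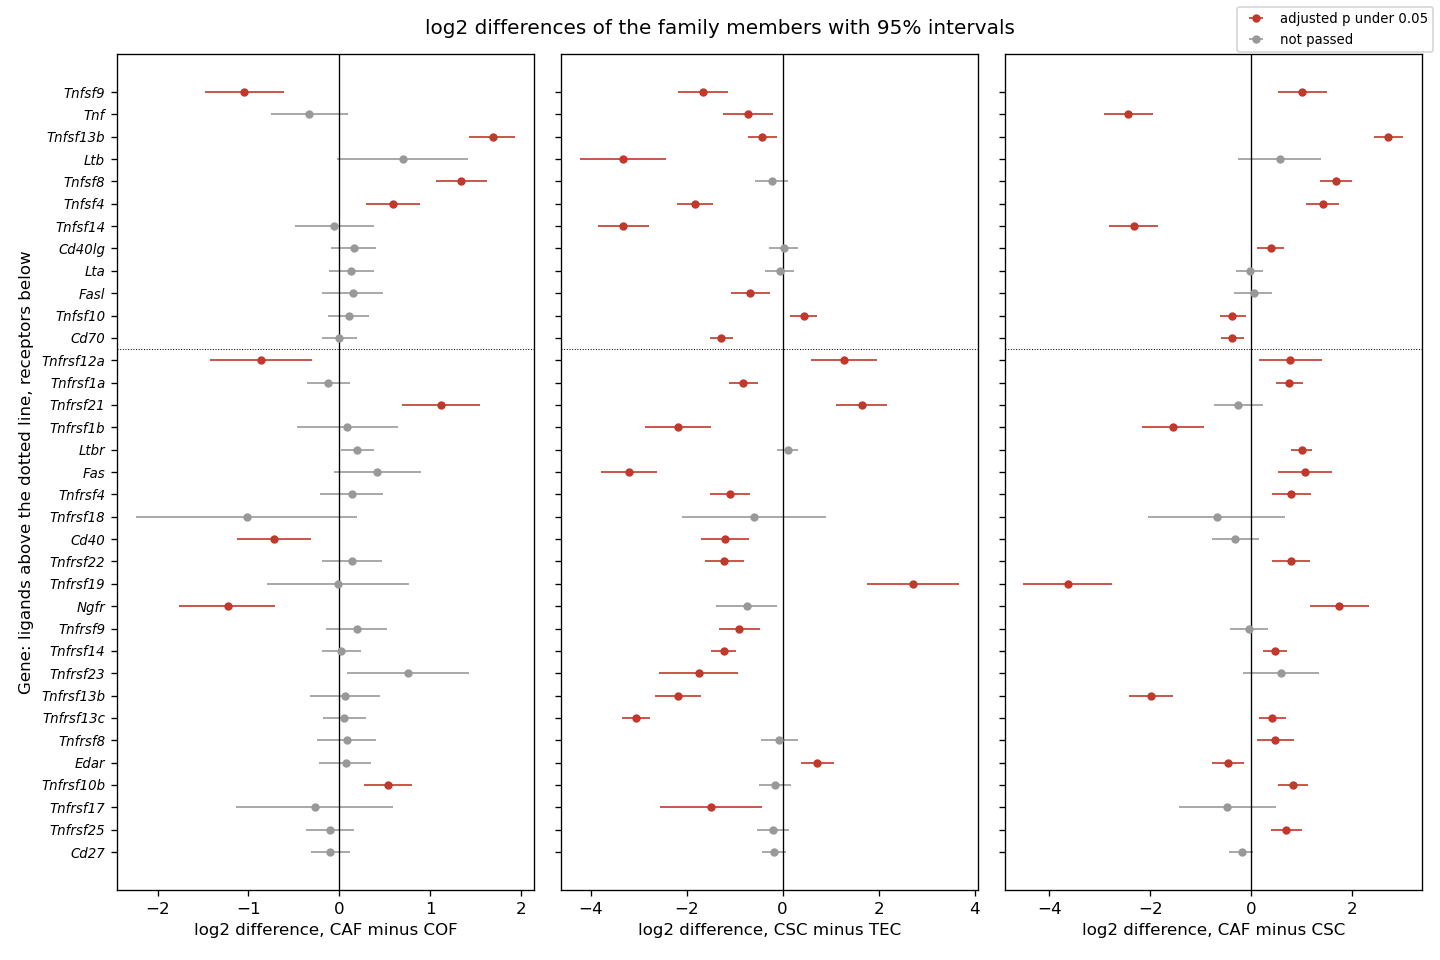
Log2 differences with 95% intervals of the 35 members in CAF minus COF (left), CSC minus TEC (middle) and CAF minus CSC (right), with ligands above and receptors below the dotted line; red marks an adjusted p under 0.05 (limma) and the scales of the panels differ. In the middle panel 20 members pass to the left of 0 and 5 to the right.

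Genes that act below the receptors were listed from general knowledge, 46 in all, of which 37 were measured. Between CAF and COF, 6 rose (16.2%, against 18.1% of all genes), 9 fell (24.3%, against 16.7%) and 22 did not pass. Traf5, an adaptor of several costimulatory receptors, stood at 7.20, 6.99 and 7.12 in CAF, against 8.43, 8.57 and 8.52 in COF. It fell by 1.40 ± 0.09 (adjusted p = 2.38e-05), with every CAF array more than 1 unit below every COF array. The NF-kappa-B subunit Rel fell by 1.07 ± 0.23 (adjusted p = 0.00624), at 7.78, 7.69 and 7.99 in CAF against 8.91, 8.86 and 8.89 in COF. Nfkbie, an inhibitor of NF-kappa-B, rose by 1.13 ± 0.24 (adjusted p = 0.00658), at 7.02, 7.23 and 7.47 in CAF against 6.21, 6.16 and 5.95 in COF. Of the 7 measured inhibitors and feedback genes Nfkbie was the only 1 to rise. Nfkbib fell by 0.77 ± 0.15 (adjusted p = 0.00482), Bcl3 fell by 0.78 ± 0.27 (adjusted p = 0.0489), and 4 did not pass. The call of Bcl3 was lost in several other settings, and that of Nfkbib was not repeated under them. Tradd, the adaptor of Tnfrsf1a, rose by 0.93 ± 0.12 (adjusted p = 0.000604). Of 7 measured death effectors and inhibitors 3 rose and 0 fell: the initiator caspase Casp8 (0.91), Bid (0.76), which carries its signal to mitochondria, and the caspase inhibitor Xiap (0.48). Of 6 measured NF-kappa-B subunits and their kinases, the subunits Rel, Rela (-0.72) and Nfkb2 (-0.57) fell and the kinase subunit Ikbkg (0.51) rose. Bid and Xiap were named after their values were seen, as were Rela, Nfkb2, Ikbkg, Casp8, Nfkbib and, for this comparison, Bcl3. The calls of Xiap and Ikbkg were lost when any of the 6 fibroblast arrays was left out, with adjusted p of 0.0505 to 0.151 for Xiap and 0.0635 to 0.0985 for Ikbkg. Nfkb2 was read from a probe set of a kind that can hybridise to related genes, and without such probe sets it differed by -0.45 (adjusted p = 0.10). The call of Bid was lost without COF replicate 2 or 3 or CAF replicate 2 or 3, with differences of 0.64 to 0.75 and adjusted p of 0.0670 to 0.0807. Leaving out COF replicate 3, CAF replicate 2 or CAF replicate 3 left 9 of these 37 genes passing in place of 15.

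Between CSC and TEC, 25 of the 37 were lower in CSC (67.6%, against 20.1% of all genes), 2 higher (5.41%, against 26.6%) and 10 did not pass. The median difference was -0.65 over these genes and 0.00 over all genes. Traf1, an NF-kappa-B-induced adaptor, stood at 6.96 and 6.42 in CSC, against 9.92 and 9.52 in TEC (-3.03 ± 0.33, adjusted p = 0.000104). Nfkbie stood at 8.42 and 7.41 in CSC, against 10.60 and 10.16 in TEC (-2.46 ± 0.30, adjusted p = 0.000190). Rel differed by -2.32 ± 0.28 (adjusted p = 0.000181) and Tnip1, a brake of NF-kappa-B, by -2.17 ± 0.25 (adjusted p = 0.000144). All 7 measured inhibitors and feedback genes of the pathway were lower in CSC, with the highest adjusted p for Bcl3 (-0.95, adjusted p = 0.0384). The call of Bcl3 was lost without COF replicate 3, CAF replicate 1, 2 or 3, TEC replicate 1 or either CSC array, with differences of -0.74 to -1.12 and adjusted p of 0.0519 to 0.181. The 10 leukocyte markers were lower in the same arrays, and their part in this was not tested.

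Between CAF and CSC, 11 of the 37 were higher in CAF, 14 lower and 12 did not pass, so 67.6% were called, near the 66.5% of all genes. Ripk3, a kinase of necroptosis, stood at 9.08, 9.11 and 9.31 in CAF, against 7.62 and 7.16 in CSC (1.78 ± 0.16, adjusted p = 1.53e-05). Bcl3, a nuclear partner of NF-kappa-B, stood at 7.41, 7.62 and 7.78 in CAF, against 9.71 and 9.37 in CSC (-1.94 ± 0.30, adjusted p = 0.000376). Bid differed by -1.63 ± 0.24 (adjusted p = 0.000277) and by -0.99 with the mean of its probe sets. Traf1 differed by -1.35 ± 0.30 (adjusted p = 0.00339).

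Several members are neighbours in the genome. In the RefSeq gene order of mouse, 17 members fell into 7 clusters with at most 2 coding genes between them, and chromosomes 4 and 17 carried 8 members each. In the lymphotoxin cluster on chromosome 17 the neighbours differed: between CSC and TEC, Ltb differed by -3.33 and Tnf by -0.73, while Lta, the soluble lymphotoxin, did not pass (-0.06 ± 0.13, adjusted p = 0.726). In the other cluster on chromosome 17, Tnfsf9, Cd70 and Tnfsf14 were all lower in CSC than in TEC. Between CAF and CSC the same cluster split, with Tnfsf9 higher (1.01) and Cd70 (-0.37) and Tnfsf14 (-2.32) lower in CAF. On chromosome 6, Ltbr (1.0) and Tnfrsf1a (0.76) were higher in CAF than in CSC, and Cd27 between 2.85 and 3.34 stayed dim.

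The 3 members that passed in no comparison were Lta, Cd27 and Tnfrsf18. Lta stood at 5.16, 5.05 and 5.21 in CAF, 5.14, 4.98 and 4.89 in COF, 5.13 and 5.22 in CSC and 5.38 and 5.09 in TEC, all near the lower quartile. Tnfrsf18 was clearly above it on every array but spread widely within COF. Of the 35 members, 11 had several probe sets. For Tnfrsf21 the other probe set gave 0.64 for CAF minus COF and 1.55 for CSC minus TEC, both in the direction of the probe set used. For Ngfr the other probe sets gave -0.15 and -0.44 between CAF and COF, and for Cd40 the other one gave -0.68.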

How the data were processed

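RNA of 4 sorted populations was hybridised to 10 single-colour arrays. The deposited values are log2 intensities, produced by the authors through RMA (named without a version in the submitters' processing notes), and no further normalization was applied. Array design and genome build are not given in the sources used here. Groups came from the sample labels. The platform annotation gave 20393 of 22690 probe sets 1 symbol, 691 several and 1606 none, and the first kind was used, with 1 probe set per gene (highest mean over the arrays), 12394 genes.

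The model was fitted in limma (version 3.58.1, R 4.3.3; lmFit, then eBayes) with no term besides group, over all 10 arrays, which share 1 estimate of the spread. Tests were two-sided, adjusted by Benjamini-Hochberg over all 12394 genes, and passed at an adjusted p under 0.05. Errors beside differences are standard errors and intervals cover 95%. Precision is limited by the number of arrays. The fit was tested on simulated data with 200 changed genes. Promoters and gene order came from RefSeq tables, with a position for all 35 members and promoters for 28. The members, the signalling and marker lists and the pairs were chosen with earlier results of these data known. Members given per array were those that passed in at least 1 comparison with a difference of at least 1, with the members of their pairs, and others were added for context. Of the signalling genes, up to 4 per comparison with the greatest differences were named. The counts of members, signalling genes and all genes were repeated under 10 other settings and without each array in turn. So were the differences of the members and of the signalling genes named, except Nfkbib. Without the dimmest 30% of genes, 16 members were not tested.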

Additional observations from a re-analysis of the deposited data

How the results depend on the processing

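Of 59 calls of members over the 3 comparisons, 36 passed in every setting in which the gene was tested and 23 were lost in at least 1. Between CAF and COF, array weights gave 21 members, 27 signalling genes and 8632 of all genes, against 9, 15 and 4309, and averaging the closest arrays gave 4, 4 and 1805. With array weights Tnfrsf13b differed by -0.19 between CAF and COF (adjusted p = 0.0350), against 0.06. With only the arrays of the 2 groups, the counts between CSC and TEC were 15, 15 and 3013, against 25, 27 and 5786. In that setting the counts between CAF and COF were higher, at 12, 18 and 5686. Those between CAF and CSC were 26, 27 and 8691, against 25, 25 and 8247. Without the dimmest 30% of genes, which left 19 of the 35 members tested, 15 passed between CSC and TEC and 14 between CAF and CSC, against 25 each. With the closest arrays averaged, 16 signalling genes passed between CAF and CSC, against 25. Leaving out 1 array at a time gave 7 to 10, 20 to 26 and 21 to 27 members, 9 to 16, 21 to 28 and 17 to 27 signalling genes, and 2980 to 5100, 4417 to 6039 and 7059 to 8737 of all genes, in the order of the comparisons CAF with COF, CSC with TEC and CAF with CSC. The cause of these changes was not tested.

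Arrays with the same replicate number did not deviate together, with correlations of 0.127, 0.00632 and -0.0824 between CAF and COF, -0.0569 for CSC with TEC, and -0.0408 and 0.0909 for CAF with CSC, so the numbers were not taken as pairs. With the replicate number as a block, 8, 25 and 24 members, 13, 26 and 20 signalling genes and 3947, 5365 and 7813 of all genes passed. Tnfrsf12a lost its call between CAF and COF (adjusted p = 0.0551) and between CAF and CSC (adjusted p = 0.0742).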
